A study of Mus musculus with 12 samples.

Results

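The response of interscapular brown adipose tissue (BAT) of wild-type (WT) mice to housing temperature was examined in 6 RNA-seq libraries, 3 from mice kept at room temperature (RT WT, 23 °C) and 3 from mice kept at thermoneutrality (TN WT, 30 °C), out of 12 libraries in the series. Library membership followed the genotype and temperature given for each sample, and no expression value was used. All mice were 10-week-old males, had been acclimated for 1 week, and carried intact Txnip, the gene for thioredoxin-interacting protein that the study deleted. The other 6 libraries came from Txnip-deficient (Txnip-/-) mice at the same 2 temperatures and are used here only for side-by-side values. Each library was taken as a mouse of its own, although no source used here states it, and p-values measure the spread between these libraries. No run, date or cage was given for either temperature, so a difference in handling between the 2 temperature groups cannot be told apart from temperature.

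Brown fat burns fatty acids to make heat. In the cold, sympathetic nerves release norepinephrine onto brown adipocytes, cAMP rises, lipid droplets are broken down, and the freed fatty acids both fuel mitochondria and open uncoupling protein 1 (Ucp1), which lets protons cross the inner membrane without ATP being made. The deiodinase encoded by Dio2 raises active thyroid hormone inside the same cells. An ordinary mouse room is mildly cold for a mouse, so that at RT brown fat is under sympathetic drive that is withdrawn at thermoneutrality.

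Of the 25124 genes listed, 12360 had a mean of at least 1 TPM (a transcript level scaled for transcript length and to a common library total) over the 6 WT libraries and were tested as differences in log2(TPM + 1), TN minus RT. Calling a gene required an adjusted p under 0.05 (limma, Benjamini-Hochberg) together with a fold change less than 0.8 or over its reciprocal, and 4443 genes were called, 35.9% of those tested. Of these, 3661 (29.6% of the tested genes) were higher and 782 (6.33%) were lower at TN. The median gene was higher at TN by 0.18, and this shift was 0.34 in the lowest 10% of genes by mean TPM and 0.005 in the highest 10%, as the plot of difference against level shows. After each library was centred on its median, 1767 genes (14.3%) were called higher and 1732 (14.0%) lower, and the share of calls that were higher went from 82.4% to 50.5%. All 1767 genes called higher after centring had also been called higher without it, and all 782 called lower stayed lower. In what follows, genes are said to have risen only where they were called higher both ways and to have fallen where they were called lower both ways, while the 1894 genes called higher only without centring, and the 950 called lower only after centring, are not counted as risen or fallen. The RT and TN values did not overlap for 57.1% of the tested genes. An exact permutation test of 1 gene with 3 against 3 libraries cannot go below p = 0.1 (two-sided), so the tests rest on the model fitted across all genes.

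The shift went with the make-up of the libraries. The 50 most abundant genes held 24.2% to 25.7% of the listed TPM at RT and 21.4% to 22.2% at TN, and 11805 to 11952 genes reached 1 TPM in a library at RT against 12515 to 12828 at TN. Sequencing depth overlapped between the groups, at 32.2 to 41.0 (RT) and 33.6 to 47.4 (TN) in units of 1e6 reads. The median difference was 0.25 in the 10% of genes with the lowest transcript GC content and 0.14 in the highest, and 0.10 in the shortest 10% of transcripts and 0.24 in the longest. The part of composition, GC content or length in any result below was not tested.

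**Figure D1:**
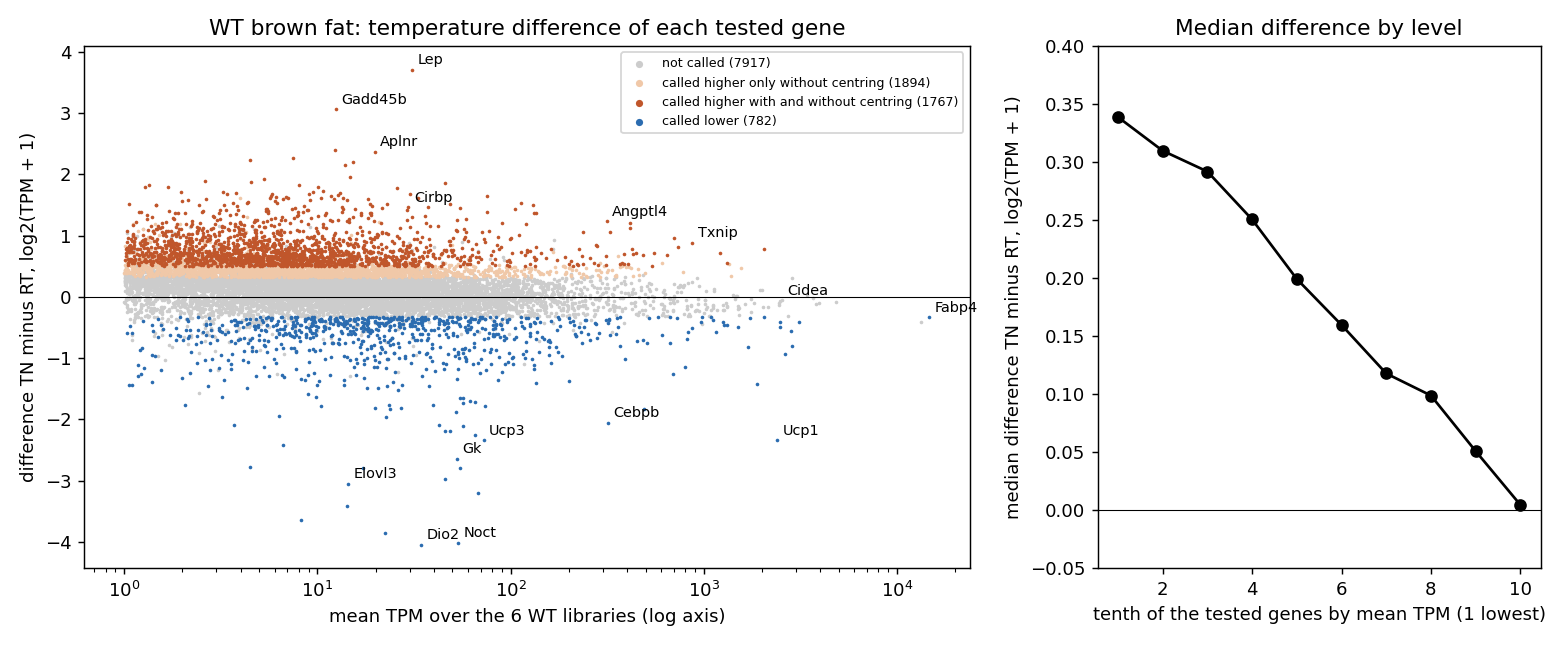
Left, the difference TN WT minus RT WT in log2(TPM + 1) of each of 12360 tested genes against its mean TPM over 6 libraries, on a log axis, with points coloured by call. Right, the median difference in each of 10 bins of genes by mean TPM, which runs from 0.34 to 0.005. Dio2 (-4.04) and Noct (-4.01) lie lowest and Lep (3.71) highest.

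The deepest fall on the log2(TPM + 1) scale was that of Dio2 (mm10 chromosome 12, 90724552 to 90739038, minus strand). Its level was 86.8, 66.9 and 43.8 TPM in the 3 RT libraries and 2.71, 2.35 and 3.81 TPM in the 3 TN libraries. Every TN value lay far below every RT value, and the mean level was 22.3-fold lower at TN (log2 difference -4.04 ± 0.24 (SE), adjusted p = 0.0002). Almost as large was the change of Noct, which encodes nocturnin, a phosphatase with a strong daily rhythm (chromosome 3, 51224447 to 51251654, plus strand). Noct measured 96.4, 114 and 93.6 TPM at RT and 4.13, 5.78 and 6.21 TPM at TN, an 18.8-fold lower mean (-4.01 ± 0.14, adjusted p = 5.0e-05). The groups were again fully apart. St3gal5, which makes the ganglioside GM3, measured 31.5, 27.6 and 33.8 TPM at RT and 3.15, 3.29 and 4.50 TPM at TN (-2.79), and was also among the 10 largest falls on that scale. By the ratio of mean TPM, which rests on values near or under 1 TPM at TN and on uneven RT libraries, Mfsd2a (135.6-fold), Hspa1b (35.8-fold), Hspa1a (26.5-fold) and Nr4a3 (26.2-fold), all described later, fell further than Dio2. The ratio of Mfsd2a was 84.1 without RT WT replicate 3, that of Hspa1a was 16.9 without RT WT replicate 2, and Hspa1a no longer exceeded Dio2 without RT WT replicate 2 or 3, nor Nr4a3 without RT WT replicate 1 or TN WT replicate 1.

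Because Dio2 is a textbook target of cAMP signalling through the cAMP response element (CRE), promoters of the fallen genes were searched for it. The letters TGACGTCA were looked for on either strand in the 250 bases before and 50 after the start of 9309 tested genes whose RefSeq promoter (GRCm38.p6, the mm10 assembly) lay within 100 bases of the transcript start used in the TPM table. They stood in 26 of 603 promoters of genes that fell (4.31%), in 32 of 1317 of genes that rose (2.43%) and in 302 of all 9309 (3.24%), shares that are given with no test. Of the genes chosen for naming, 5 that fell held the motif, namely Dio2, Errfi1, Ppp1r15a, Ldha and Uqcrfs1. Mcm5 rose and held it too, as did Pnpla3 and Slc25a36, which were called higher only without centring. The 250 bases before the start are shown for Dio2, Errfi1 and Ppp1r15a, the 3 with the largest falls, with the motif in capitals. The calls of Ldha (lost without RT WT replicate 3 or TN WT replicate 3), Uqcrfs1 (without RT WT replicate 1 or TN WT replicate 2) and Pnpla3 (without RT WT replicates 1 or 2 or TN WT replicates 2 or 3) rested on single libraries. A match is a description, not a site or a cause. In Dio2 it began 95 bases before the start, in Errfi1 51 and in Ppp1r15a 12.
Dio2 (chr12:90739039-90739288, minus strand): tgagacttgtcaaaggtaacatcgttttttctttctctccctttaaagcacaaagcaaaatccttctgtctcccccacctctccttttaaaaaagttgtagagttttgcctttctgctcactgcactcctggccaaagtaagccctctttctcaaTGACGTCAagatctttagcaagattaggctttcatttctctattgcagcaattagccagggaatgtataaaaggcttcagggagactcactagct
Errfi1 (chr4:150854820-150855069, plus strand): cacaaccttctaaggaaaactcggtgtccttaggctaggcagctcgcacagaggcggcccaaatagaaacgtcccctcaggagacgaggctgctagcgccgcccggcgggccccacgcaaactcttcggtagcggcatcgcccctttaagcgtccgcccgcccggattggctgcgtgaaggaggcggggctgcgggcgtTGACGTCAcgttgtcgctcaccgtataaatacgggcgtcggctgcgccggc
Ppp1r15a (chr7:45526269-45526518, minus strand): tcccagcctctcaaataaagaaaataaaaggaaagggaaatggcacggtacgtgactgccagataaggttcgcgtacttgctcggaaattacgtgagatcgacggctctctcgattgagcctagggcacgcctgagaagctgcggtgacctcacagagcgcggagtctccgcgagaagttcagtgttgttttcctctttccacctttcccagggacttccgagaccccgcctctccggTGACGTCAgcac
Errfi1 encodes a feedback inhibitor of the EGF receptor and measured 19.7, 20.6 and 19.9 TPM at RT against 7.04, 7.32 and 7.30 TPM at TN (-1.36 ± 0.07, adjusted p = 0.00011). Its 3 values within each group were among the most even of the fallen genes named here. Ppp1r15a, which directs a phosphatase to the stress-regulated translation factor eIF2alpha, fell by 0.85 on the log2 scale (adjusted p = 0.023), a call lost without TN WT replicate 1 or 2 (-0.82 and -0.71).

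Ucp1 (chromosome 8, 83290348 to 83298456, plus strand) led the thermogenic programme at RT. It measured 4366, 3809 and 3770 TPM at RT and 1136, 621 and 686 TPM at TN. All TN values were below all RT values, with a 4.89-fold lower mean (-2.34 ± 0.21, adjusted p = 0.00068), and at 814 ± 280 TPM (SD, n = 3) Ucp1 still ranked among the abundant transcripts at TN. Ucp3, an uncoupling protein relative, went from 122 ± 16.1 to 23.2 ± 1.02 TPM (-2.34). Elovl3, an elongase of very long fatty acids that marks cold-activated brown fat, measured 23.8, 20.2 and 35.1 TPM at RT and 0.691, 3.97 and 2.97 TPM at TN (-3.05, adjusted p = 0.0016). Gk, glycerol kinase, which returns glycerol to triglyceride synthesis, went from 91.7 ± 16.7 to 13.9 ± 2.81 TPM (-2.64).

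Of 38 genes listed for the thermogenic programme, 36 passed the filter on mean TPM, and 18 fell and 2 rose (over all tested genes, 6.33% and 14.3%), with a median difference of -0.38 against 0.18 over all tested genes. Members of this and every later list were chosen with earlier results of these data known, so such counts describe the list and test nothing. The fallen members covered several steps of heat production. Otop1, a proton channel, fell by 1.10, Slc27a2, a fatty acyl-CoA synthetase, by 0.82, and Pdk4, the kinase that shuts pyruvate out of the mitochondrial oxidation route, by 0.69 on the log2 scale. Other falls were those of Acot11 (-1.09), S100b (-0.86), Plin5 (-0.68), Kcnk3 (-0.63), Letmd1 (-0.49), Cox7a1 (-0.46), Cox8b (-0.40) and Cpt1b (-0.35). The call of Cox8b was lost without TN WT replicate 2 (-0.32) and with no filter (adjusted p = 0.0648, limma), and that of Cpt1b without any of RT WT replicates 1 and 2 and TN WT replicates 2 and 3 (-0.29 to -0.35).

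Transcriptional regulators of brown fat differed among themselves. Ppargc1a, the cold-inducible coactivator of mitochondrial genes, measured 18.3, 35.6 and 17.6 TPM at RT and 14.5, 9.30 and 12.8 TPM at TN (-0.86, adjusted p = 0.035). The groups did not overlap, but the call was lost without RT WT replicate 2, TN WT replicate 2 or TN WT replicate 3 (-0.54 to -0.90). It was also lost with all 12 libraries in the fit (adjusted p = 0.0637, limma), with the replicate block (0.0707) and with no filter on TPM (0.0626). Irf4, which acts with Ppargc1a, fell by 1.23 (adjusted p = 0.017), with RT WT replicate 1 at 24.0 TPM and the other RT libraries at 9.35 and 9.30, and lost its call without TN WT replicate 3 (-1.20). Prdm16, which specifies the brown lineage, measured 9.09 ± 5.16 and 8.02 ± 1.75 TPM (-0.02, adjusted p = 0.98), Ppargc1b 32.3 ± 4.32 and 31.8 ± 2.18 TPM (-0.02), Esrra 137 ± 7.54 and 130 ± 11.9 TPM (-0.07) and Zfp516 3.70 ± 0.742 and 3.76 ± 0.388 TPM (0.03). Ebf2 lay at 23.3 ± 10.7 TPM at RT and 31.6 ± 2.76 at TN (0.53, adjusted p = 0.21). Lhx8 (1.43 ± 0.360 to 3.82 ± 1.02 TPM, 0.98) and Zic1 (3.30 ± 0.714 to 5.34 ± 0.358 TPM, 0.57), transcription factors that mark the classical brown lineage, were the 2 members that rose.

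Other defining genes of brown fat stayed close to their RT level. Cidea, a lipid droplet protein, measured 2445, 2587 and 2701 TPM at RT and 2273, 2642 and 2539 TPM at TN (-0.05 ± 0.08, adjusted p = 0.61). Fabp3, a fatty acid carrier, lay at 552 ± 23.1 and 554 ± 60.3 TPM (0.00, adjusted p = 0.99), and Nrg4, a secreted growth factor, at 84.9 ± 14.6 and 78.1 ± 6.32 TPM (-0.11). Acot2 (-0.21) and Sirt3 (-0.05) were not called either. Ppara (0.33), Pank1 (0.41), Esrrg (0.50), Eva1a (0.37) and Eva1b (0.39) were called higher only without centring, and of these Ppara, Pank1, Eva1a and Eva1b each lost the call on leaving out any of 3 or 4 of the libraries. The brown fat markers Ucp1, Cidea, Zic1 and Lhx8 were detected in both groups.

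**Figure D2:**
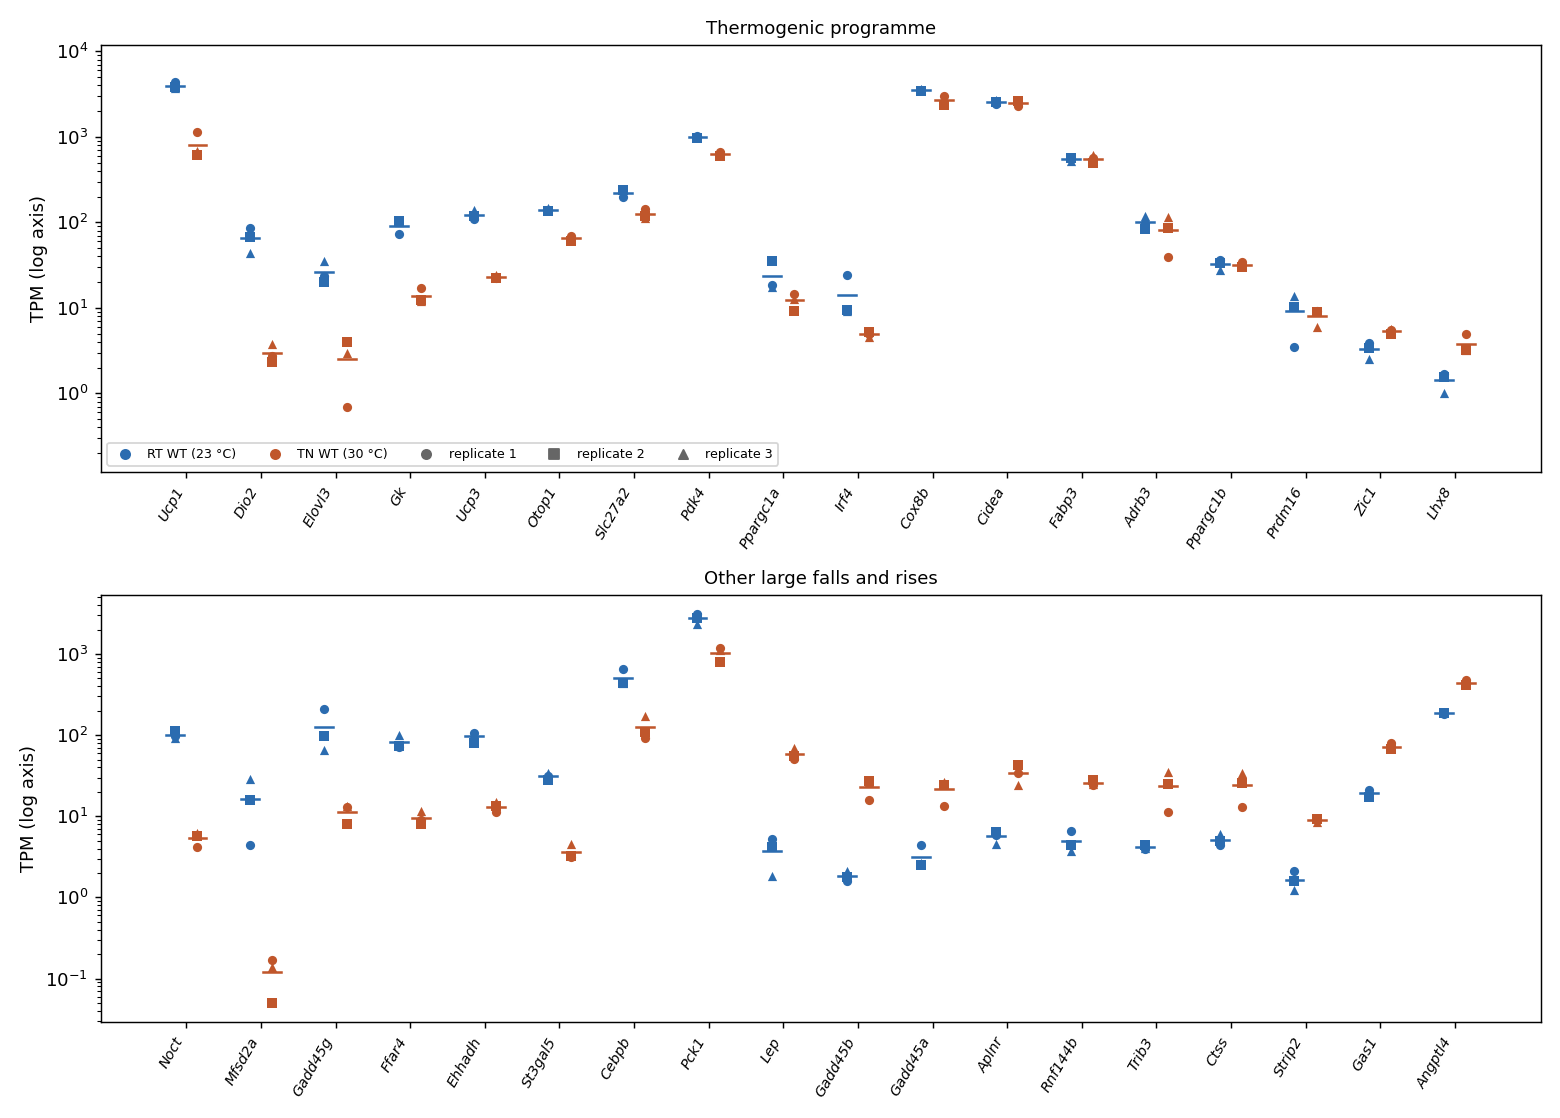
TPM of named genes in the 6 WT libraries on a log axis, with 3 RT WT libraries in blue and 3 TN WT libraries in orange, a marker shape for each replicate and a bar at each group mean. Ucp1, Dio2, Elovl3, Gk and Ucp3 separate by temperature, while Cidea, Fabp3, Ppargc1b and Prdm16 overlap, and Lep, Gadd45b and Aplnr lie higher in all TN libraries.

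Genes around the adrenergic receptors went both ways. Of 40 tested members of adrenergic and cAMP signalling, 6 fell, 3 rose and 3 were called higher only without centring (median -0.04), while 12 were called lower after centring. Over all tested genes 6.33% fell, 14.3% rose and 14.0% were called lower after centring, so the share that rose was below that of all genes. Nr4a3, a nuclear receptor induced by cAMP, measured 13.6, 6.75 and 5.50 TPM at RT and 0.153, 0.491 and 0.344 TPM at TN (-2.77, adjusted p = 0.00083), with no overlap. Among the members that fell, Nr4a3 passed the filter only through its RT values, which fixes its direction. Pde4d, a phosphodiesterase that breaks down cAMP, went from 56.0 ± 10.7 to 19.7 ± 2.94 TPM (-1.46). Gadd45g, a cold-induced stress gene, stood at 212, 97.2 and 65.6 TPM at RT and 12.9, 7.97 and 13.3 TPM at TN (-3.21, adjusted p = 0.0015). In the other direction, Rgs2, which damps G protein signals, rose from 67.5 ± 6.86 to 193 ± 36.3 TPM (1.49). Adrb3, the main beta receptor of rodent fat, measured 98.5, 83.8 and 117 TPM at RT and 39.4, 85.9 and 116 TPM at TN (-0.43, adjusted p = 0.34), so that 1 TN library lay below and the others within the RT range. The list's counts depended on single libraries, with 10 members called lower without TN WT replicate 1 and 3 called higher without TN WT replicate 2.

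Enzymes that make and store triglyceride were often lower at TN. Of 20 tested members of triglyceride synthesis and glycerol handling, 9 fell, 0 rose and 2 were called higher only without centring. Over all tested genes 6.33% fell, 14.3% rose and 29.6% were called higher without centring. Besides Gk, Pck1, which makes the glycerol backbone from pyruvate in fat, measured 3091, 2809 and 2350 TPM at RT and 1200, 799 and 1113 TPM at TN (-1.42, adjusted p = 0.0013). Gpd1, glycerol-3-phosphate dehydrogenase, went from 3635 ± 574 to 2081 ± 184 TPM (-0.80), and Mogat1 from 9.68 ± 1.5 to 3.49 ± 1.10 TPM (-1.27). Dgat2, which joins the last fatty acid to the glyceride, lay at 1607 ± 119.8 and 1407 ± 164 TPM (-0.19, adjusted p = 0.16), and was called lower only after centring (-0.37). After centring 11 members were called lower, against 14.0% of all tested genes. No library of 1 group reached into the other for the 4 called enzymes named here, as was so for 57.1% of all tested genes.

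Lipid droplet and lipolysis genes changed in a similar number. Of 19 tested members, 9 fell and 2 rose, and 12 were called lower after centring, against 6.33%, 14.3% and 14.0% of all tested genes. G0s2, the inhibitor of adipose triglyceride lipase, measured 536, 835 and 938 TPM at RT and 165, 261 and 217 TPM at TN (-1.82, adjusted p = 0.0016). Abhd5, the lipase's activator, also fell, from 76.3 ± 8.53 to 29.6 ± 0.766 TPM (-1.33), and the droplet coat gene Plin2 from 523 ± 97.9 to 262 ± 70.7 TPM (-1.02). The lipase itself, Pnpla2, measured 1876 ± 30.8 TPM at RT and 2032 ± 111 at TN (0.11, adjusted p = 0.21). Hilpda (1.26) and Plin4 (0.61), both droplet proteins, rose.

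Fatty acid activation and uptake showed falls among abundant genes and a rise of an inhibitor of lipoprotein lipase. Of 23 tested members, 6 fell, 3 rose and 9 were called lower after centring, when the shares of all tested genes were 6.33%, 14.3% and 14.0%, so the rises were near the share of all genes. Acsl1, the main acyl-CoA synthetase of adipocytes, measured 1114, 1108 and 1055 TPM at RT and 599, 426 and 472 TPM at TN (-1.14, adjusted p = 0.00091). Acsl5 fell by 0.94 and Lpl, lipoprotein lipase, from 1438 ± 105 to 1081 ± 64.8 TPM (-0.41). Angptl4, which inactivates lipoprotein lipase, went the other way, from 181, 189 and 193 TPM at RT to 474, 418 and 440 TPM at TN (1.24 ± 0.07, adjusted p = 0.00015), and Apoe (0.55), a lipoprotein component, rose too. Outside these lists, Ffar4, a receptor for long-chain fatty acids, fell from 81.6 ± 16.5 to 9.52 ± 1.78 TPM (-2.97), Ehhadh, a peroxisomal beta-oxidation enzyme, from 96.9 ± 14.3 to 13.1 ± 1.84 TPM (-2.79), and Mfsd2a, a lysolipid carrier, from 16.3 ± 12.2 to 0.12 ± 0.0629 TPM (-3.63). Mfsd2a passed the filter only through its RT values, which fixes its direction.

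De novo lipogenesis genes gave calls in both directions. Of 22 tested members 5 fell and 3 rose (9 lower after centring), when 6.33% of all tested genes fell, 14.3% rose and 14.0% were called lower after centring. However, 2 to 3 were called lower without any of RT WT replicates 1 and 3 and TN WT replicates 1 and 3. Fasn, fatty acid synthase, measured 3258, 2554 and 4547 TPM at RT and 1342, 2596 and 1559 TPM at TN, so the groups overlapped, and its fall (-0.93, adjusted p = 0.029) was lost without each of the same 4 libraries (-0.71 to -0.95) as well as with the replicate block (adjusted p = 0.0556, limma) and with no filter (0.0598). Elovl6 fell from 221 ± 73.5 to 103 ± 30.5 TPM (-1.08, adjusted p = 0.012). Scd1, the stearoyl-CoA desaturase and among the most abundant transcripts, lay at 15350, 11700 and 17420 TPM at RT and 6376, 16370 and 12970 TPM at TN (-0.40, adjusted p = 0.34), and reads may be shared with its close relatives. Fads1 (1.04) and Fads2 (0.67), desaturases of polyunsaturated fatty acids, rose, as did Srebf1 (0.77), the transcription factor of lipid synthesis.

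Among 27 tested genes of mitochondrial fatty acid oxidation 12 fell and 0 rose, when 6.33% of all tested genes fell, and 7 were called lower without TN WT replicate 3. Etfdh, which passes electrons from fatty acid oxidation to ubiquinone, measured 680, 640 and 601 TPM at RT and 436, 361 and 343 TPM at TN (-0.76, adjusted p = 0.0018). Slc25a20, the carnitine-acylcarnitine carrier, went from 565 ± 19.8 to 343 ± 24.2 TPM (-0.72), and Crat, carnitine acetyltransferase, from 293 ± 23.9 to 175 ± 21.1 TPM (-0.74). The abundant chain enzymes Acadl (2158 ± 102 and 1917 ± 148 TPM, -0.17) and Acaa2 (2555 ± 34.3 and 2348 ± 227 TPM, -0.13) were not called without centring, and Acadl was called lower after it (-0.35). After centring 17 members of the list were called lower, against 14.0% of all tested genes.

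Subunits of the respiratory chain moved little. Of 38 tested complex I subunits 0 fell and 1 rose, of 13 subunits of complexes II and III 2 fell, of 15 cytochrome c oxidase subunits 3 fell and 1 rose, and of 17 ATP synthase subunits 1 fell and 1 rose, when 6.33% of all tested genes fell and 14.3% rose. The risers were Ndufa4l2 (10.9 ± 0.363 to 18.1 ± 0.256 TPM, 0.68), Cox4i2 (5.16 ± 0.383 to 8.07 ± 0.596 TPM, 0.56) and Atp5g1 (5.06 ± 0.220 to 8.82 ± 1.76 TPM, 0.68). Ndufa4l2 and Cox4i2 are hypoxia-linked, low-abundance variants. Abundant subunits such as Cox4i1 (3408 ± 75.3 and 3468 ± 132 TPM, 0.02) and Atp5b (5018 ± 23.6 and 4725 ± 361 TPM, -0.09) were not called. After median centring, 10 complex I, 11 complex II and III, 6 cytochrome c oxidase and 5 ATP synthase subunits were called lower, against 14.0% of all tested genes, so the size of the respiratory chain's change depends on the scaling. The same held for the mitochondrial ribosome (9 of 78 fell, 23 lower after centring) and for the Timm and Tomm import proteins (5 of 25 fell, 13 lower after centring). Without TN WT replicate 2 these 2 lists had 5 and 3 called lower, and complexes II and III had 0 to 4 called lower on leaving out a library.

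Genes of pyruvate entry and the TCA cycle, which feed the respiratory chain, were counted next. Of 35 members 8 fell and 1 rose, and 17 were called lower after centring. Of all tested genes 6.33% fell, 14.3% rose and 14.0% were called lower after centring, the shares against which glycolysis and the other lists named next were also counted. Mpc2, a subunit of the mitochondrial pyruvate carrier, measured 828, 763 and 940 TPM at RT and 476, 492 and 520 TPM at TN (-0.76, adjusted p = 0.0012), and Pdp2, the phosphatase that switches pyruvate dehydrogenase on, fell by 0.96. Idh2, which makes NADPH in mitochondria, rose from 337 ± 17.1 to 553 ± 63.4 TPM (0.71). In glycolysis, 6 of 26 members fell and 0 rose, with Pfkfb3, the kinase that makes the activator of phosphofructokinase, going from 290 ± 37.6 to 111 ± 9.59 TPM (-1.37) and Hk2, a hexokinase, from 129 ± 23.0 to 67.1 ± 7.55 TPM (-0.92). On leaving out a library, 3 glycolytic genes were called lower without TN WT replicate 3. Peroxins, which build peroxisomes, gave 6 falls among 16, led by Pex16 (-1.01), Pex5 (-0.86) and Pex14 (-0.63), and 0 rises. For breakdown of branched-chain amino acids 6 of 25 fell and 0 rose (12 lower after centring), with Slc3a2, an amino acid transporter chain, at -0.61, and 1 to 3 were called lower without any of RT WT replicates 1 and 2 and TN WT replicates 2 and 3.

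Further metabolic and regulatory lists were counted in the same way, again against 6.33% fallen, 14.3% risen and 14.0% lower after centring over all tested genes. Of 37 mitochondrial carriers of the Slc25 family 10 fell and 0 rose (14 lower after centring), of 15 fatty acid elongation and desaturation genes 6 fell and 3 rose, and of 19 general adipocyte genes 8 fell and 0 rose. Glycogen genes gave 3 falls and 3 rises among 24 (5 lower after centring), cholesterol genes 3 and 6 among 32 (5 lower), and insulin signalling 2 and 4 among 25 (3 lower), with several of these shares near those of all genes. Of 45 lysosomal genes 3 fell and 6 rose, about the shares of all tested genes, and 11 were called lower after centring. Of 21 factors secreted by brown fat 6 rose and 0 fell, of 36 genes of mitochondrial biogenesis and dynamics 1 rose and 0 fell (9 lower after centring), of 13 thyroid hormone signalling genes, Dio2 included, 3 fell and 0 rose, and of 7 ketone body genes 1 fell and 0 rose (3 lower after centring). On leaving out 1 library, the glycogen genes called lower went down to 0 or 1 and the thyroid hormone genes to 1.

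**Figure D3:**
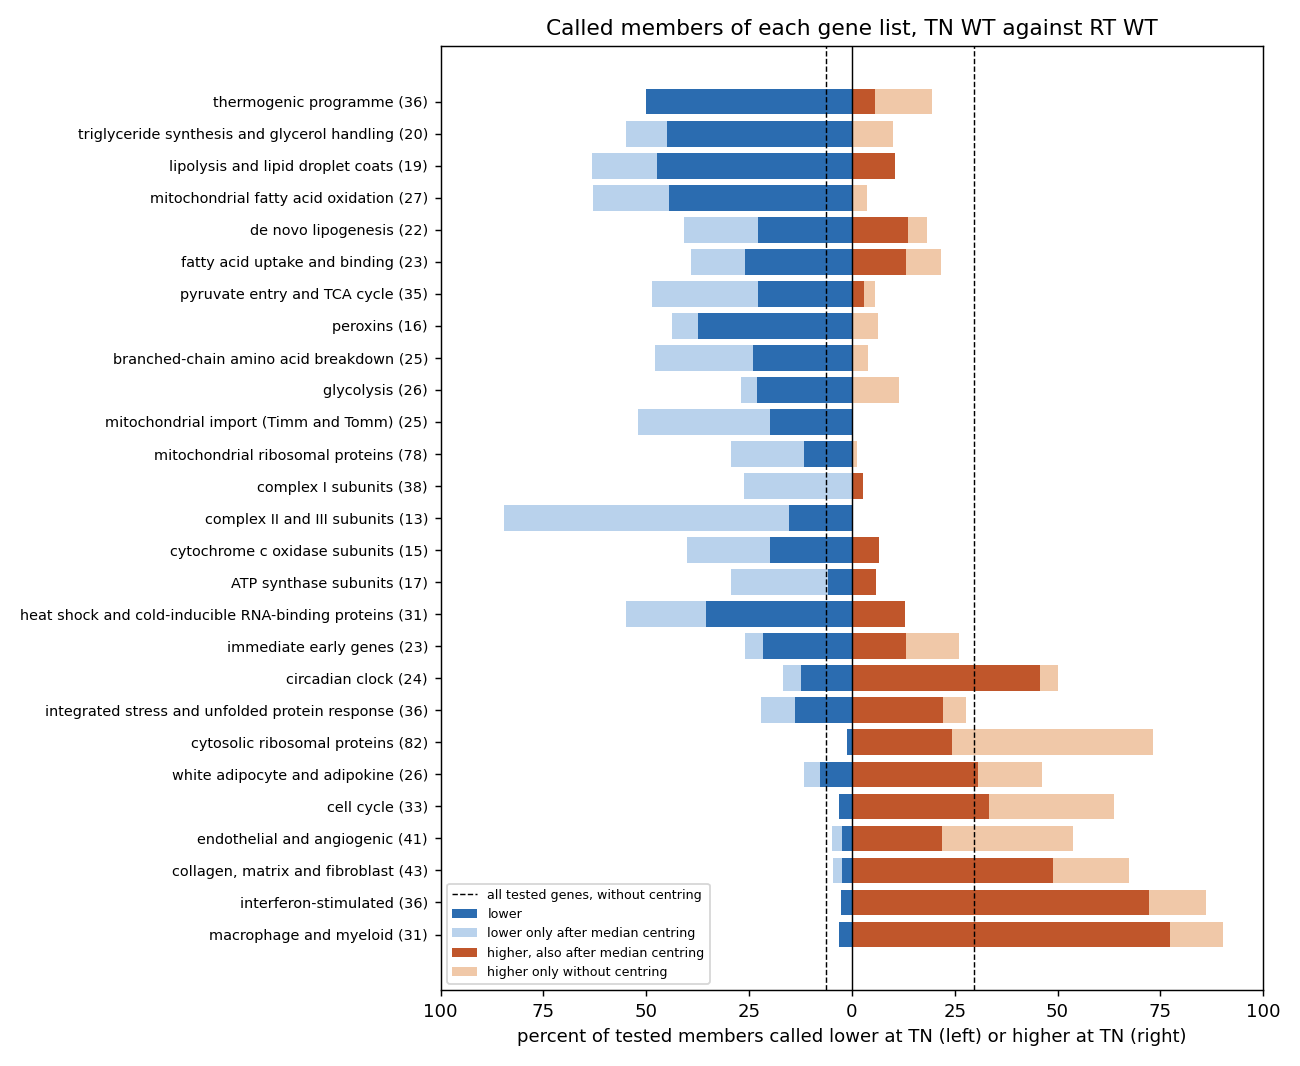
Share of tested members of 27 gene lists called lower (left) or higher (right) at TN in WT, in percent, with the number of tested members after each name and dashed lines at the shares over all tested genes, 6.33% lower and 29.6% higher. Dark bars hold with and without median centring, pale bars in only 1 of the scalings. Lipid and thermogenic lists extend to the left, and macrophage, interferon and matrix lists to the right.

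Lep, the gene for leptin, the hormone of white adipocytes that reports fat stores, rose most on the log2(TPM + 1) scale (chromosome 6, 29060221 to 29073876, plus strand). It measured 5.19, 4.14 and 1.82 TPM at RT and 50.3, 55.1 and 68.5 TPM at TN. The mean was 15.6-fold higher at TN (3.71 ± 0.27, adjusted p = 0.00037), with a wide gap between the groups. By the ratio of means Mmp12, which was near 0 at RT, rose further (35.7-fold, 22.8-fold without TN WT replicate 3). Next on the log2 scale came 2 members of the Gadd45 stress family, Gadd45b (1.83 ± 0.255 to 23.2 ± 6.26 TPM, 3.06) and Gadd45a (3.18 ± 1.05 to 21.5 ± 7.09 TPM, 2.40), opposite in direction to their relative Gadd45g. Aplnr, the apelin receptor, went from 5.66 ± 0.951 to 33.9 ± 9.46 TPM (2.37), Rnf144b from 4.91 ± 1.45 to 25.7 ± 1.76 TPM (2.20), and Gas1 from 19.2 ± 1.66 to 71.9 ± 6.40 TPM (1.85). Apcdd1 (2.27), Trib3 (2.15), Ctss (1.96) and Strip2 (1.92) completed the 10 largest rises among genes with a mean of at least 5 TPM.

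White adipocyte and adipokine genes did not all follow Lep. Of 26 tested members 8 rose, 2 fell and 4 were called higher only without centring, against 14.3% risen and 6.33% fallen over all tested genes. Npr3, the natriuretic peptide clearance receptor, went from 13.8 ± 1.53 to 46.5 ± 9.15 TPM (1.67), Sncg from 10.7 ± 1.85 to 32.7 ± 14.3 TPM (1.45) and Cfd, adipsin, from 929 ± 219.8 to 1507 ± 252 TPM (0.71). Adipoq, adiponectin, lay at 887 ± 116 and 1011 ± 149.8 TPM (0.19, adjusted p = 0.27), and Rbp4, the retinol carrier, fell from 184 ± 47.7 to 80.9 ± 20.5 TPM (-1.18). Among general adipocyte genes Cebpb, an early adipogenic factor induced by cAMP, measured 660, 439 and 434 TPM at RT and 91.9, 109 and 173 TPM at TN (-2.05, adjusted p = 0.0014), while Pparg was called higher only without centring (234 ± 36.7 to 346 ± 59.4 TPM, 0.56) and not without TN WT replicate 1 or 3.

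Genes of myeloid cells rose widely. Of 31 tested members of the macrophage and myeloid list 24 rose (14.3% of all tested genes did), 4 more were called higher only without centring, and 1 fell, namely Lpl, which adipocytes also express (median difference 1.12 against 0.18 over all tested genes). Lyz2, lysozyme, measured 33.6, 34.7 and 37.0 TPM at RT and 82.2, 109 and 158 TPM at TN (1.65, adjusted p = 0.0015), and C1qa, a complement subunit of tissue macrophages, 12.1, 11.9 and 16.4 TPM against 21.6, 31.3 and 35.9 TPM (1.06). Ccr2, the receptor of recruited monocytes, went from 0.951 ± 0.163 to 5.50 ± 1.60 TPM (1.71), and Mmp12 from 0.0913 ± 0.0457 to 3.26 ± 2.37 TPM (1.79). TN WT replicate 1 was lowest of the TN libraries for Lyz2, C1qa, Ccr2, Ctss and Mmp12, and each of its values stayed above all RT values. Summed over the list without Lpl, the level was 127 to 146 TPM at RT and 277 to 494 TPM at TN, and 0 members were at 0 in all 6 libraries. Of the 31, 10 had an RT mean under 1 TPM and passed the filter through their TN values, 8 of the 24 that rose among them, Ccr2 and Mmp12 included. In bulk tissue, more cells of a type and more RNA per cell cannot be told apart.

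Interferon-stimulated genes were also mostly higher, with 26 of 36 risen (14.3% of all tested genes), 5 more called higher only without centring and 1 fallen (median 0.87). Of the 26, 2 had an RT mean under 1 TPM and passed the filter only through their TN values. Cxcl10, a chemokine, measured 1.39, 1.12 and 1.26 TPM at RT and 3.84, 8.71 and 11.0 TPM at TN (1.87, adjusted p = 0.0033), Gbp5 went from 2.51 ± 0.441 to 8.38 ± 2.06 TPM (1.4) and Bst2 from 33.1 ± 7.73 to 63.2 ± 12.8 TPM (0.92). The exception was the most abundant member, Ifi27, at 1530 ± 31.1 and 1120 ± 130.4 TPM (-0.46). The 3 inducible subunits of the immunoproteasome rose as well, Psmb8 from 19.7 ± 1.30 to 52.1 ± 15.0 TPM (1.32), Psmb10 by 1.06 and Psmb9 by 1.04, and they were the 3 proteasome subunits of 47 that rose. Of the 7 lymphocyte genes that passed the filter out of 33 in the table, 1 rose, Ltb (0.56 ± 0.238 to 2.0 ± 0.536 TPM, 0.94), and 15 of the 33 stayed under 1 TPM in every library. Ltb and 4 others of the 7 passed the filter through their TN values alone, so the list says nothing on direction.

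Stromal and vascular genes included more calls higher than lower. Of 43 tested collagen, matrix and fibroblast genes 21 rose, 8 more were called higher only without centring and 1 fell (median 0.58), when over all tested genes 14.3% rose and 29.6% were called higher without centring. Vim, vimentin, measured 402, 442 and 406 TPM at RT and 645, 696 and 723 TPM at TN (0.72, adjusted p = 0.00076). S100a4 (1.28), Mmp14 (1.08) and Lum (0.98) rose, and Sparc lay at 448 ± 35.7 and 502 ± 59.9 TPM (0.16, adjusted p = 0.23). Eln, elastin, was the member that fell (-0.48, adjusted p = 0.046), a call lost on leaving out any library but RT WT replicate 1 (-0.35 to -0.55), and also with no filter, in the 12-library fit, with the replicate block and without the variance trend (adjusted p = 0.0506 to 0.0802, limma). Of 41 endothelial and angiogenic genes 9 rose, against 14.3% of all tested genes, 13 were called higher only without centring and 1 fell, and 13 were called higher without TN WT replicate 2. Cldn5, a tight junction protein of endothelium, went from 46.0 ± 12.3 to 95.8 ± 13.3 TPM (1.07), Pgf, which passed the filter only through its TN values, measured 0.729 ± 0.0875 and 3.03 ± 1.04 TPM (1.19), and Pdgfb fell from 30.8 ± 1.77 to 22.0 ± 1.47 TPM (-0.47). Epas1 (-0.09) was not called.

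Markers of erythrocytes, muscle and nerve were counted as well. The 10 tested erythrocyte genes gave 0 calls by limma in either direction (1 lower after centring), with Hba-a1 at 225 ± 8.62 and 238 ± 86.5 TPM (0.02), and the globin copies cannot be separated with certainty because they are nearly identical. Of 34 skeletal muscle contractile genes listed, 8 passed the filter and 17 stayed under 1 TPM in all 6 libraries. Tpm1 (0.69) and Mb (0.61), which other tissues also express, rose, and Myl1 lay at 74.7 ± 1.76 and 73.1 ± 0.926 TPM (-0.03). Of 20 tested nerve and Schwann cell genes, against 14.3% risen and 6.33% fallen over all tested genes, 1 rose, Ntf3 (0.65), and 2 fell, S100b and Clstn3 (126 ± 5.68 to 54.0 ± 11.1 TPM, -1.22), both of which brown adipocytes express, while Th, the enzyme of norepinephrine synthesis in nerve endings, was listed at 0 in all 6 libraries (named after its values were seen). How far a changed share of these cells entered the results on adipocyte genes was not tested.

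Cell cycle genes were low, and 33 of 60 in the table passed the filter. Of these, 11 rose, 10 more were called higher only without centring and 1 fell (over all tested genes 14.3% rose, 29.6% were called higher without centring and 6.33% fell). However, 3 of the 11, Rrm2 and Mcm5 among them, had an RT mean under 1 TPM. They passed through their TN values, which fixes their direction. Of all higher calls, 13 were called higher without TN WT replicate 2. Rrm2, a subunit of ribonucleotide reductase, went from 0.804 ± 0.0301 to 2.41 ± 0.0995 TPM (0.92), Mcm5, of the replication helicase, from 0.920 ± 0.256 to 2.61 ± 0.464 TPM (0.91), and Ccnd1, cyclin D1, from 3.76 ± 1.06 to 6.82 ± 0.482 TPM (0.74). The member that fell, the cell cycle inhibitor Cdkn1a, measured 67.8, 101 and 78.6 TPM at RT and 22.2, 19.5 and 22.6 TPM at TN (-1.88, adjusted p = 0.00038). Myc, a growth-promoting transcription factor, rose from 2.23 ± 0.281 to 9.19 ± 3.12 TPM (1.61).

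Cytosolic ribosomal protein genes were mostly higher at TN, the larger number of them only without centring. Of 82 tested genes 20 rose, 40 more were called higher only without centring and 1, Rpl7l1, fell (-0.52), with a median difference of 0.43 before and 0.25 after centring. Over all tested genes 14.3% rose, 29.6% were called higher without centring and 6.33% fell. Rps4x measured 182 ± 15.0 and 288 ± 6.72 TPM (0.66) and Rplp1 675 ± 3.77 and 893 ± 91.6 TPM (0.40, higher only without centring and not called without TN WT replicate 3). The mitochondrial ribosomal proteins had a median difference of -0.06. Ribosomal protein genes have many processed copies in the genome, and reads may be shared among them.

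The heat shock list depended on RT WT replicate 1. Of 31 tested members 11 fell and 4 rose, with 17 called lower after centring (6.33%, 14.3% and 14.0% of all tested genes), but 19 were called lower without RT WT replicate 1, 7 without RT WT replicate 2 and 7 without TN WT replicate 1. Hspa1b, an inducible Hsp70 chaperone, measured 7.36, 67.1 and 56.0 TPM at RT and 1.02, 1.43 and 1.19 TPM at TN (-3.85 ± 0.71, adjusted p = 0.0051), and its near-identical copy Hspa1a 5.55, 47.2 and 29.5 TPM against 0.622, 1.46 and 1.03 TPM (-3.41), so that the split of reads between them is uncertain. RT WT replicate 1 was lowest at RT for both, yet above every TN library. Hsph1, a co-chaperone, fell by 2.19 (adjusted p = 0.024), a call lost on leaving out any library but RT WT replicate 1 (-1.65 to -2.26). Cirbp, the cold-inducible RNA-binding protein, rose at the warmer temperature, from 18.8, 15.9 and 11.5 TPM at RT to 45.5, 47.8 and 37.9 TPM at TN (1.47, adjusted p = 0.0012), and its relative Rbm3, named after its values were seen, rose by 0.53. Cryab (0.84) and Srsf5 (0.78) were the other risers.

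Immediate early genes also set RT WT replicate 1 apart. Nr4a1 measured 362 TPM there and 11.7 and 5.32 TPM in the other RT libraries, against 40.1, 22.3 and 30.2 TPM at TN, and its log2 difference was 0.01 ± 1.31. Without RT WT replicate 1 it was called higher at TN (1.79, adjusted p = 0.0068, limma). Of 23 tested members 3 rose, 5 fell and 3 were called higher only without centring (14.3% of all tested genes rose and 6.33% fell), and 11 were called higher without RT WT replicate 1 and 3 called lower without TN WT replicate 2. Jun rose from 54.5, 21.8 and 18.3 TPM to 80.6, 77.2 and 76.0 TPM (1.45, adjusted p = 0.013). Klf4, a transcription factor, fell from 36.8 ± 10.1 to 8.61 ± 1.73 TPM (-1.96), and Klf2 from 63.7 ± 25.3 to 28.7 ± 8.43 TPM (-1.09), the latter call being lost without TN WT replicate 1 or 2 (-1.0 and -0.96). Among glucocorticoid-responsive genes 6 of 18 fell and 1 rose, including Sgk1, a kinase, from 80.3 ± 20.7 to 16.6 ± 3.21 TPM (-2.19). The time between death and freezing was not given in the sources used here, and its part was not tested.

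The circadian clock list gave 11 rises and 3 falls among 24 tested genes, with 1 more called higher only without centring, when 14.3% of all tested genes rose and 6.33% fell. The clock is a feedback loop in which activators that bind E-boxes (CACGTG) drive their own repressors, and output genes peak at set hours of the day. Dbp, an output transcription factor, measured 43.7, 42.4 and 80.5 TPM at RT and 101, 121 and 154 TPM at TN (1.20, adjusted p = 0.0085). Nr1d1, a repressor of the activator arm, went from 66.3, 82.8 and 109 TPM to 149, 136 and 138 TPM (0.73), Bhlhe41 from 4.79 ± 0.245 to 11.3 ± 1.33 TPM (1.08) and Timeless from 2.74 ± 0.323 to 7.72 ± 1.10 TPM (1.22). Against these, Per1, a core repressor that also answers to cAMP, measured 26.5, 22.6 and 25.5 TPM at RT and 15.4, 15.7 and 16.3 TPM at TN (-0.62, adjusted p = 0.0016). Nfil3, which opposes Dbp at shared sites, fell from 19.3 ± 2.28 to 9.22 ± 1.01 TPM (-0.99), and Usp2 from 27.6 ± 2.41 to 15.3 ± 2.21 TPM (-0.82). The hour of dissection was not given in the sources used here, so an unequal hour cannot be told apart from temperature.

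An E-box stood in 5 of 18 clock gene promoters (27.8%), in 955 of all 9309 (10.3%), in 77 of 603 promoters of genes that fell (12.8%) and in 104 of 1317 of genes that rose (7.90%). Per1 and Bhlhe41 moved in opposite directions with an E-box 166 and 153 bases before the start, and their 250 bases before the start are shown with it in capitals.
Per1 (chr11:69098699-69098948, plus strand): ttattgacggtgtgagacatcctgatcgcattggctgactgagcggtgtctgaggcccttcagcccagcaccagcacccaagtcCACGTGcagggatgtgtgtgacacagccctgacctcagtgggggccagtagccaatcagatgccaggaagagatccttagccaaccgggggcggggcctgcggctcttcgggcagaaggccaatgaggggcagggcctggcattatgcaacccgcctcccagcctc
Bhlhe41 (chr6:145865421-145865670, minus strand): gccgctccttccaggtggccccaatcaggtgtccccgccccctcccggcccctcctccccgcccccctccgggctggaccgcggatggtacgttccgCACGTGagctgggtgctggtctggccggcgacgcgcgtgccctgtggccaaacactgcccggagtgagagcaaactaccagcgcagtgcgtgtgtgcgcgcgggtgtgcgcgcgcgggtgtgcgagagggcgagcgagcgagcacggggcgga

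**Figure D4:**
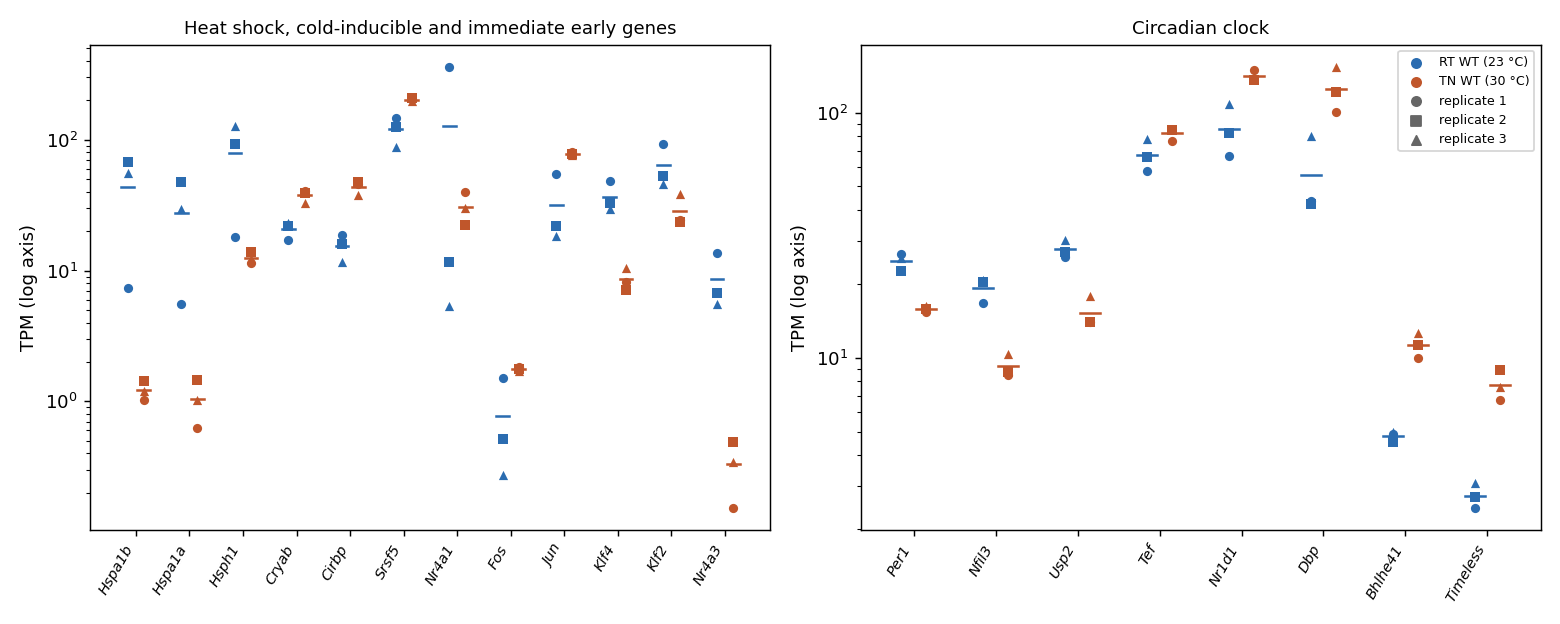
TPM on a log axis of heat shock, cold-inducible and immediate early genes (left) and circadian clock genes (right) in 3 RT WT (blue) and 3 TN WT (orange) libraries, with marker shapes for replicates and bars at group means. Among the RT libraries, RT WT replicate 1 (blue circle) is lowest for Hspa1b and highest for Nr4a1. Per1, Nfil3 and Usp2 fall, and Nr1d1, Dbp, Bhlhe41 and Timeless lie higher in all TN libraries.

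Stress, iron and redox genes added single large changes. Of 36 genes of the integrated stress and unfolded protein response 8 rose and 5 fell, with 8 called lower after centring, when of all tested genes 14.3% rose, 6.33% fell and 14.0% were called lower after centring. Phgdh, the entry enzyme of serine synthesis, went from 3.87, 4.31 and 3.50 TPM to 14.0, 14.1 and 17.1 TPM (1.71, adjusted p = 0.00022), whereas Sesn2, a stress-induced inhibitor of mTORC1, fell from 16.8 ± 2.75 to 4.16 ± 0.585 TPM (-1.78). Among 29 iron-handling genes 2 rose and 3 fell, with 10 called lower after centring. Tfrc, the transferrin receptor that brings iron into cells, measured 22.6, 16.9 and 9.42 TPM at RT and 56.3, 38.7 and 54.9 TPM at TN (1.62, adjusted p = 0.0044), and Alas1, which starts haem synthesis, rose from 156 ± 29.6 to 321 ± 17.9 TPM (1.05). Of 39 antioxidant and thioredoxin genes 6 rose and 2 fell (5 lower after centring), near the shares of all tested genes, with Gpx3, a secreted peroxidase, at 1513 ± 196 and 2609 ± 272 TPM (0.79) and Gpx8 at 160 ± 24.5 and 79.0 ± 4.01 TPM (-1.0). Slc6a8 (0.82), the creatine transporter, and Gamt (0.86), the last enzyme of creatine synthesis, were among 4 risen of 12 creatine and calcium cycling genes, and Atp2a2, the calcium pump SERCA2, fell by 0.45.

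Txnip itself (chromosome 3, 96557957 to 96561857, plus strand) rose with temperature in WT. It measured 564, 581 and 694 TPM at RT and 1238, 1083 and 1072 TPM at TN, a 1.84-fold higher mean (0.89 ± 0.10, adjusted p = 0.0012) with no overlap. In the Txnip-/- libraries, 24.8, 26.9 and 35.4 TPM were listed at RT and 11.0, 14.4 and 10.5 TPM at TN, so the deletion was seen in every knockout library. Gm15441, a non-coding RNA whose exons overlap Txnip on the opposite strand, went from 184, 188 and 220 TPM to 413, 337 and 323 TPM in WT (0.85) and measured 171 ± 2.52 and 158 ± 16.5 TPM in Txnip-/-. The counting was not stated to use strand, so reads of Gm15441 and Txnip cannot be told apart where they overlap. The same limit holds for other genes described here with an annotated gene on the opposite strand, among them Dio2, Elovl3, Gk, Gpd1, Dbp, Gadd45a, Gas1 and Hspa1a.

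The same temperature contrast in the 6 Txnip-/- libraries, which share no library with the WT contrast, went the same way for 4366 of the 4443 genes called in WT (98.27%), against 84.1% of all tested genes. In Txnip-/- 30.5% of the tested genes were called higher and 8.49% lower, and 3315 of the WT calls were called there in the same direction. Dio2 differed by -4.04 in WT and -3.91 in Txnip-/-, Noct by -4.01 and -3.12, Lep by 3.71 and 3.56, and Gadd45b by 3.06 and 3.22. Larger gaps were seen for Ucp1 (-2.34 and -3.64), Hspa1b (-3.85 and -0.85), Mfsd2a (-3.63 and -1.94) and the macrophage list (median 1.12 and 1.57). A test of the difference between the genotypes over 12486 genes with all 12 libraries passed for 1 gene, 0.00801%. That gene was Txnip (adjusted p = 0.003445, limma), which is deleted in Txnip-/-, so its change there is that of residual reads. The adjusted p of that test was 0.242 for Ucp1, 0.221 for Hspa1b and 0.360 for Mfsd2a, so none of these 3 is shown to respond differently in WT. No member of the macrophage list passed that test either, and the difference between the list's medians was not tested.

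The next smallest p-values of the genotype test all had an adjusted p of 0.0776 and belonged to Gm15441, Ucp3, Fah and Cox8b. Ucp3 differed by -2.34 in WT and -0.91 in Txnip-/-, Fah, the last enzyme of tyrosine breakdown, by -1.05 and -0.16, and Cox8b by -0.40 and -1.33. Tfrc was called in opposite directions, at 1.62 in WT and -0.74 in Txnip-/-, with the same adjusted p of 0.0776. In Txnip-/- it measured 94.4, 121 and 99.6 TPM at RT and 46.4, 70.0 and 74.0 TPM at TN, with the RT values above the TN values, the reverse of WT. The plot of the named genes in both genotypes shows Txnip and Tfrc in the quadrant of a WT rise and a Txnip-/- fall.

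**Figure D5:**
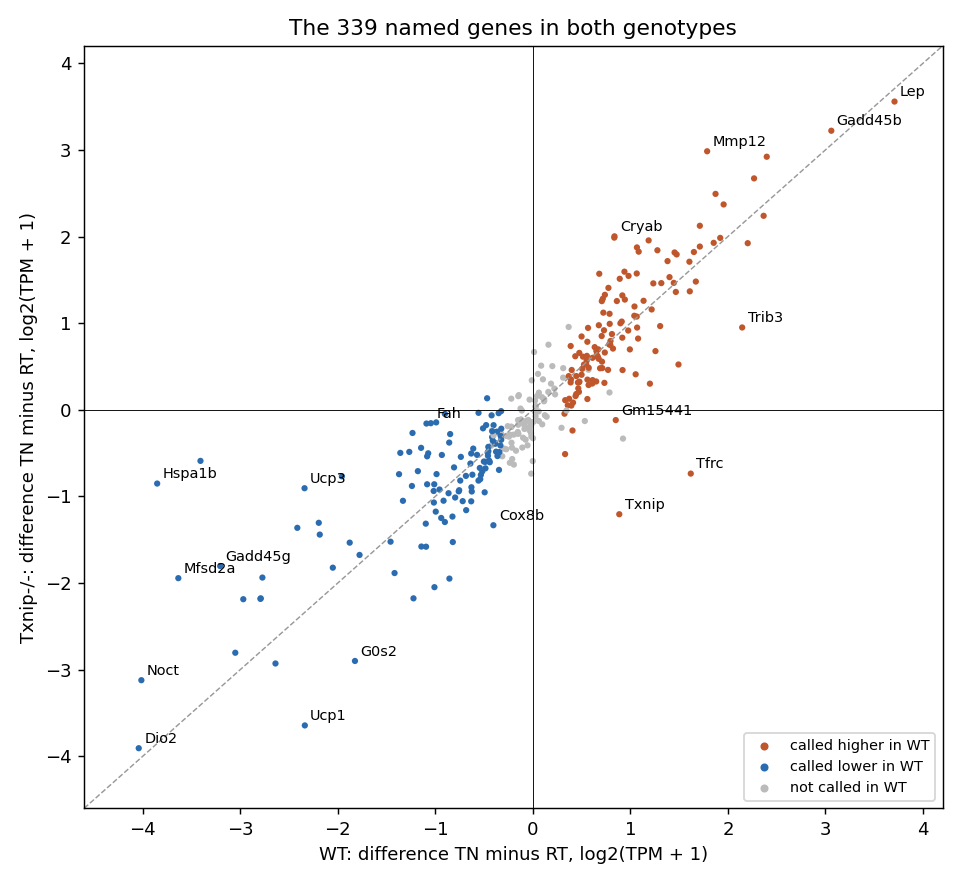
Difference TN minus RT in log2(TPM + 1) of the 339 named genes in WT (x axis, 3 against 3 libraries) and in Txnip-/- (y axis, 3 against 3 libraries), coloured by the WT call, with a dashed line at equal differences. Dio2 (-4.04 and -3.91) and Lep (3.71 and 3.56) lie near the line, Ucp1 below it, and Txnip (0.89 and -1.21) and Tfrc (1.62 and -0.74) lie in the lower right.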

How the data were processed

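Polyadenylated RNA of interscapular BAT was sequenced in 12 libraries, of which the 6 WT libraries (3 RT, 3 TN) make up the comparison and the 6 Txnip-/- libraries serve for side-by-side values. Per the labels, the authors used bcl2fastq, aligned reads to mm10 with STAR 2.7.5a, and quantified genes with HOMER 4.11.1, and DESeq2 is named as well. The authors deposited TPM, scaled for transcript length and library total. Listed TPM sum to 55.4% to 57.6% of the full TPM scale in the WT libraries, the rest not being analysed here. The deposited log2 values, which the authors normalised separately for each temperature, and the columns of the authors' own comparisons (fold changes and p-values) were not used, as they cannot be compared across temperatures. TPM keep no counts, so no counting error could be given. Library totals (32.2 to 47.4 in units of 1e6 reads) come from the deposited column names.

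Genes with a mean of at least 1 TPM over the 6 libraries were tested on log2(TPM + 1) with limma 3.58.1 (R 4.3.3, expression trend, Benjamini-Hochberg over all tested genes), and fold changes on that scale understate those of low genes. The difference between genotypes was an interaction term over 12 libraries. The script was tested on simulated data. Python 3.11.15, pandas 2.3.3 and matplotlib 3.10.9 did the rest. Promoters came from RefSeq (GRCm38.p6). Alternatives were median centring, upper-quartile scaling, rescaling without the 50 highest genes, a pseudocount of 0.1, no filter, all 12 libraries in 1 fit, the replicate block, no variance trend, stricter thresholds and leaving out each library. Named genes were the 10 largest changes of each sign among called genes with a mean of at least 5 TPM, no overlap and the same call after centring, all members of the thermogenic list, Txnip, the 5 smallest p-values of the interaction, and for every other list up to 3 called members of each sign and its 3 most abundant. Not all of these 339 genes are described. The members and the 48 lists were chosen with earlier results of these data known.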

Additional observations from a re-analysis of the deposited data

Results flagged for a closer look

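Txnip was singled out because it passed the test of the difference in temperature change between genotypes. It is the deleted gene, so its values in Txnip-/- are those of residual reads. The test therefore cannot show a genotype-dependent temperature response of Txnip. The log2 change was 0.89 in WT and -1.21 in Txnip-/-, a difference of changes of 2.09 (limma interaction, adjusted p = 0.003445), with 3 of 3 TN libraries above all RT libraries in WT and 3 of 3 below in Txnip-/-. The levels in Txnip-/- were 10.5 to 35.4 TPM, and which transcripts the remaining reads came from was not tested.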

How the results depend on the processing

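Of 4443 called genes, 465 passed at a fold change of 2 (323 higher, 142 lower) and 2605 at an adjusted p of 0.01 (2126 higher, 479 lower), both following from the stricter limit. Median centring gave 1767 higher and 1732 lower. The counts of all calls under the other alternatives were within 1.5 times the reported one, and leaving out 1 library gave 3315 (without TN WT replicate 2) to 4402. With the replicate block 4438 genes were called. Of the called genes described, Ppargc1a, Fasn and Eln lost their call with the block. Same-numbered RT and TN libraries correlated at 0.17, -0.14 and 0.10 in their deviations, so the numbers were not taken to pair the mice. Genes without a call changed sign as follows. Centring gave -0.15 for Cox4i1, -0.16 for Hba-a1, -0.17 for Nr4a1, -0.0641 for Pnpla2, -0.0181 for Sparc and -0.15 for Zfp516. Upper-quartile scaling gave -0.078 for Cox4i1, -0.0802 for Hba-a1, -0.0836 for Nr4a1 and -0.0527 for Zfp516. Rescaling without the 50 highest genes gave -0.008 for Cox4i1, -0.0104 for Hba-a1 and -0.0183 for Nr4a1. A pseudocount of 0.1 gave 0.0053 for Prdm16. Leaving out 1 library gave -0.35 to 0.0484 for Acot2, -0.75 to 0.0118 for Adrb3, -0.10 to 0.0079 for Cidea, -0.0067 to 0.0429 for Cox4i1, -0.0733 to 0.0841 for Fabp3, -0.25 to 0.23 for Hba-a1, -1.13 to 1.79 for Nr4a1 (called higher without RT WT replicate 1), -0.18 to 0.0274 for Nrg4, -0.12 to 0.0678 for Ppargc1b, -0.52 to 0.33 for Prdm16, -0.15 to 0.0138 for Sirt3 and -0.0709 to 0.15 for Zfp516. The causes were not tested beyond the settings' own construction. With 3 libraries a group and no counts, small differences in low genes cannot be resolved.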
